A study of Mus musculus with 2 samples.

Results

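The 46 genes described here mark the dividing cell. They were chosen by name for their known roles and fall into 22 genes of DNA replication and the entry into it (S genes) and 24 genes of the G2 phase and mitosis (G2/M genes). All 46 were found among the 32285 genes measured, and they lie on 16 chromosomes. They were followed through the cancer cells, T cells, macrophages and stromal cells of subcutaneous ovarian tumors profiled by droplet single-cell RNA sequencing, in which each RNA molecule caught from a cell carries a unique molecular identifier (UMI) and a cell barcode. Tumors were grown from SO cells, a mouse ovarian cancer line made from p53-/- C57BL/6 cells with HRAS and MYC introduced by lentivirus, so the cancer cells of every tumor share these alterations. 1000000 SO cells were injected under the skin of female C57BL/6 mice aged 6 to 8 weeks. The hosts were wild type (WT) or tight skin (TSK), heterozygous for an internal duplication of Fbn1, the gene of the matrix protein fibrillin-1. The duplication is in the germline of the host and absent from the injected line, so it is carried by the immune and stromal cells and not by the cancer cells. Tumors of a genotype were pooled before dissociation, red cell lysis and dead cell removal, giving 1 library per genotype. A difference between genotypes therefore has no replicate to be set against, no test was possible, and every interval below is an exact 95% interval for counting error alone.

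A cell that divides passes from G1, in which it commits to replicate, through S phase, in which DNA is copied, to G2 and mitosis. The MCM2 to MCM7 proteins form the helicase that opens DNA, loaded by Cdc6 and Cdt1, and cyclin E and the E2F factors commit the cell to replicate. Cyclins A and B with Cdk1 then drive mitosis, while Aurora and Polo kinases, kinesins and centromere proteins build the spindle and the kinetochore, and Cdc20 and Ube2c act with the anaphase-promoting complex to end mitosis. In tumors these genes are high in cycling cancer cells, and they are also used by activated T cells and by stromal or myeloid cells that still divide. Mature neutrophils have left the cell cycle and served as the cell type that should lack these transcripts.

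S genes and G2/M genes are known to be controlled through different promoter elements, E2F sites for the first and the cell cycle homology region (CHR) with CCAAT boxes for the second. Promoters from 250 bases before to 50 bases after the start were taken from RefSeq (GRCm38.p6) and were matched for 19 S and 21 G2/M genes. Mcm4, Gins2, Ccne2, Ccna2, Aurkb and Tpx2 were not matched. The letters searched on both strands were TTTGGCGC, TTTCGCGC, TTTCCCGC, TTTGCCGC and TTTCCCGG for E2F, TTTGAA and TTCGAA for CHR, CCAAT itself, and the NRF1 motif, another promoter motif searched for contrast. The E2F letters were in 8 S promoters (42.1%), in 2 G2/M promoters (9.52%) and in 3.54% of the 27025 promoters of all genes. The CHR letters were in 16 G2/M promoters (76.2%), 3 S promoters (15.8%) and 19.4% of all promoters. A CCAAT box was in 90.5% of G2/M, 63.2% of S and 37.9% of all promoters, and each G2/M promoter with CHR letters also held a CCAAT box, a combination found in 7.70% of all promoters. NRF1 letters were in none of the members' promoters and in 0.977% of all promoters. In the 100 bases before the start alone, E2F letters were left in 15.8% of S promoters and 1.21% of all promoters. CHR letters were left there in 33.3% of G2/M promoters and 6.29% of all promoters.

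**Figure D1:**
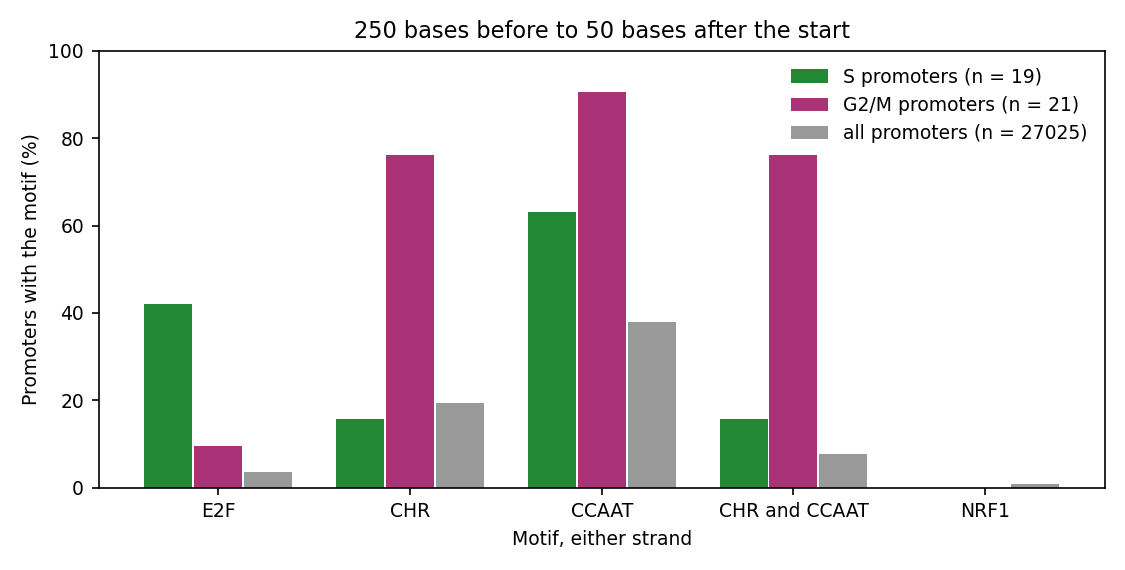
Share of promoters (percent, vertical axis) that hold each motif on either strand (horizontal axis), for the S genes, the G2/M genes and all genes, in the window from 250 bases before to 50 bases after the start. The E2F bar is highest for the S genes (42.1%) and the bars for CHR and for CHR with CCAAT are highest for the G2/M genes (76.2% each).

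The 150 bases before the start are shown for 6 genes, 3 of each phase, chosen because their promoters range from several matches to none while their levels in cancer cells differed between the libraries. They are Mcm6 at chr1:128359706-128359855 on the minus strand, Mcm5 at chr8:75109359-75109508 on the plus strand, Ccne1 at chr7:38107491-38107640 on the minus strand, Top2a at chr11:99024190-99024339 on the minus strand, Ube2c at chr2:164769779-164769928 on the plus strand and Plk1 at chr7:122159285-122159434 on the plus strand, each written 5′ to 3′ along its gene with the E2F, CHR and CCAAT letters in capitals. Where capitals run past 8 bases in Mcm6, 2 E2F matches overlap and were counted apart, and CCAAT on the other strand reads ATTGG.
Mcm6: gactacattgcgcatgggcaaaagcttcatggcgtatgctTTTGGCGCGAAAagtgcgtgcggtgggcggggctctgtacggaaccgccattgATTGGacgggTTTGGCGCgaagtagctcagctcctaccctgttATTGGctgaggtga
Mcm5: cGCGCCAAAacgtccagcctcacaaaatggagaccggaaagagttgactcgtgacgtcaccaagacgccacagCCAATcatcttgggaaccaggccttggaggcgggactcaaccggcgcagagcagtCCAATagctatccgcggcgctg
Ccne1: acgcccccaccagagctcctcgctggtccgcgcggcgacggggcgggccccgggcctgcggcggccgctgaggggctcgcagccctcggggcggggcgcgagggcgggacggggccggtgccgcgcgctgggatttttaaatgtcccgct
Top2a: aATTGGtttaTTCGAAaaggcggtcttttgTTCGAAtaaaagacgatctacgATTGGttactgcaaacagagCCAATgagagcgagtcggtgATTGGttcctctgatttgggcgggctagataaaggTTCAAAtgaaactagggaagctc
Ube2c: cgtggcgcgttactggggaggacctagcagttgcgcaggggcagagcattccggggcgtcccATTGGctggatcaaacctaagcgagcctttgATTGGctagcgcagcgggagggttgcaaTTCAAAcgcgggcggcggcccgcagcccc
Plk1: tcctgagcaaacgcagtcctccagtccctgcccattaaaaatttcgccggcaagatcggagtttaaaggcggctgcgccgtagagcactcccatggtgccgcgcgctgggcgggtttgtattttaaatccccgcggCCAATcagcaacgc
Mcm6, a helicase subunit, held 3 E2F matches and 2 CCAAT boxes here, and Top2a, the topoisomerase that untangles sister chromosomes, held 3 CHR matches and 4 CCAAT boxes. Ccne1, cyclin E1, held none of these letters. Plk1, the Polo-like kinase, held 1 CCAAT box in this stretch, and its CHR match lay 33 bases after the start. A match is a string of letters and was not measured as a bound site.

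The WT library held 2332 barcodes with 21225411 UMIs and the TSK library 4436 with 48296765. After filters, 1442 WT and 2961 TSK cells were kept, at medians of 7658.5 and 7302 UMIs per cell. By raw marker UMIs, 94 WT and 1119 TSK cells were cancer cells (Lgals7, Krt18, Hmga2), 474 and 316 were T cells (Cd3d, Cd3e, Trac), 246 and 401 were macrophages (C1qa, Csf1r) and 221 and 327 were stromal, and 28 and 181 were neutrophils (S100a8, Retnlg). The class rule was set after the counts had been seen, and none of its markers is among the 46 genes. Summed cancer markers stood at 3883 CPM in WT (CPM being the UMIs of a gene or list per 1000000 UMIs of the class) and 2278 CPM in TSK cancer cells, and T cell markers there at 2.83 and 8.84 CPM, with none of the 14 at 0. The cancer classes differed in keratins. Krt18 was at 1044 CPM in WT and 298 CPM in TSK, Krt8 at 91.6 and 6.71, and Krt19 at 97.3 and 6.44. Hmga2 (510 and 482 CPM) and Wt1 (36.5 and 36.9 CPM) were similar. The part of this difference in the results below was not tested. Cancer cell RNA reached the other classes unequally: cancer markers in T cells, macrophages, stromal cells and neutrophils were at 0.204 to 0.321% of their level in cancer cells in WT and at 2.28 to 5.56% in TSK.

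263 barcodes occurred in both libraries, and they bear directly on the cancer cells. 228 of them held UMIs in a ratio of WT to TSK between 0.749 and 1.40, at medians of 914 and 770.5 UMIs. 32 others held at least 42.6 times more UMIs in WT, with medians of 89078.5 UMIs in WT and 630.5 in TSK, and 3 were at least 10 times deeper in TSK. All shared barcodes were left out of the main values. Leaving them out took deep cells mainly from WT: 21 cancer cells of a median 97012 UMIs, 7 stromal cells and 1 macrophage, against 3 cancer cells from TSK. The 7 stromal cells were deeper than all WT stromal cells left. The 21 cancer cells held from 33101 UMIs up, where those left reached 75879, and the macrophage held 23625 UMIs, where those left reached 49447. Those 21 cells hold 38.4% of the WT cancer UMIs once they are kept, with S genes at 1488 CPM and G2/M genes at 2807 CPM. The main results that rest on them are therefore given again with a shared barcode kept in the library that held at least 10 times more of its UMIs. This choice was made after the data had been seen (below, with the shared barcodes kept). Values not given again leave these barcodes out.

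Cancer cells had the highest levels of the cell cycle genes of all classes in both libraries, and fibroblasts had the lowest G2/M levels. In WT the S genes summed to 779 CPM in cancer cells, 667 in T cells, 414 in macrophages and 248 in stromal cells. The G2/M genes summed to 1002, 406, 347 and 271 CPM in the same order. In TSK the sums for S genes were 1438, 764, 551 and 401 CPM, and for G2/M genes 2637, 647, 587 and 792 CPM. The order cancer, T, macrophage, stromal held for both phases in WT, with no overlap of neighbouring counting intervals, and in TSK stromal cells stood above T cells for G2/M genes while the intervals of T cells and macrophages overlapped. Neutrophils were at 179 and 282 CPM for S genes and 380.3 and 409.8 CPM for G2/M genes, in WT and TSK. The interval of WT neutrophils for G2/M genes, 263 to 531 CPM from 34 UMIs, held the levels of WT T cells, macrophages and stromal cells, and WT fibroblasts lay below it. In TSK the same 3 lineages stood above the neutrophil interval of 349 to 478 CPM.

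Over all 46 genes, T cells lay -0.73 (-0.79 to -0.67) on the log2 scale from the cancer cells of the same library in WT and -1.53 (-1.61 to -1.45) in TSK. Macrophages lay -1.23 (-1.30 to -1.16) and -1.84 (-1.89 to -1.79) from them, and stromal cells -1.78 (-1.85 to -1.71) and -1.77 (-1.81 to -1.73). With the shared barcodes kept, the WT values were -1.35 for T cells, -1.86 for macrophages and -2.23 for stromal cells, so the WT gap to cancer cells was wider in all 3 lineages once the deep cells were kept. The gap was wider for G2/M than for S genes in T cells and macrophages: in WT T cells the S genes were -0.22 (-0.30 to -0.14) and the G2/M genes -1.30 (-1.39 to -1.21) from cancer cells. With the shared barcodes kept, WT cancer cells were at 1051 CPM for S and 1695 CPM for G2/M genes. WT T cells stayed at 667 and 406 CPM, so both gaps were then wider. Among single genes past 2-fold, 13 of 22 S genes and 23 of 24 G2/M genes were lower in TSK T cells than in TSK cancer cells, where 33.7% of all genes were. For TSK macrophages they were 17 of 22 and 24 of 24 (all genes 39.0%), and for TSK stromal cells 22 of 22 and 24 of 24 (all genes 25.3%). Pcna, the sliding clamp of replication, did not follow this order, at 184 CPM in WT T cells and 88.1 CPM in WT cancer cells (120.4 with the shared barcodes kept), and at 133 and 130.0 CPM in the TSK ones.

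**Figure D2:**
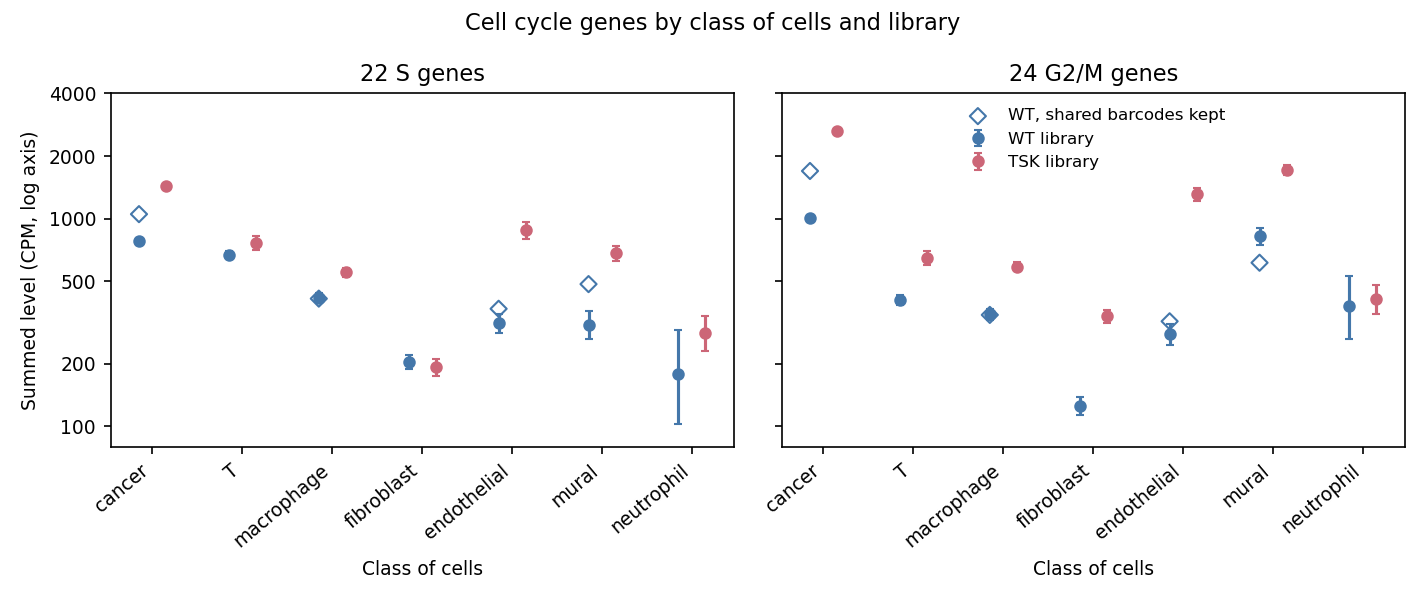
Summed level (CPM, log axis) of the 22 S genes and the 24 G2/M genes in each class of cells. Filled points are the WT and TSK libraries with exact 95% Poisson intervals, and open diamonds are WT with the shared barcodes kept. For G2/M genes the cancer cells stand at 1002 CPM in WT, 1695 CPM in WT with the shared barcodes and 2637 CPM in TSK.

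Cancer cells of the TSK library had higher S and G2/M levels than those of the WT library, by a margin that depended strongly on the shared barcodes. The summed S genes were at 779 CPM in WT and 1438 CPM in TSK, a log2 ratio of 0.88 (0.83 to 0.94), and the G2/M genes at 1002 and 2637 CPM, a log2 ratio of 1.40 (1.34 to 1.45). With the shared barcodes kept, the WT level was 1051 CPM for S and 1695 CPM for G2/M genes over 115 cells, and the log2 ratios were 0.45 (0.41 to 0.49) and 0.64 (0.61 to 0.67). With equal weight per cell the log2 ratios were 1.03 without and 0.74 with the shared barcodes for S genes, and 1.35 and 0.95 for G2/M genes. The direction was the same in each of these settings. Beside these ratios, the median log2 ratio of all genes tested in cancer cells was 0.16 without and 0.05 with the shared barcodes.

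Without the shared barcodes, 9 of 22 S genes and 21 of 24 G2/M genes were at least 2-fold higher in TSK cancer cells, beside 9.51% of all genes, and none was 2-fold lower, beside 7.17% of all genes. With them, 1 S gene (Cdc6) and 0 G2/M genes passed 2-fold, beside 4.58% of all genes. The list medians moved from 0.94 to 0.37 for S and from 1.40 to 0.61 for G2/M genes. All 46 log2 ratios were above 0 in both settings, and 20 S and 24 G2/M intervals lay above 0 without the shared barcodes. The median of all genes was also above 0, at 0.16 without and 0.05 with them. The share of all genes with a ratio or an interval above 0 was not counted. The count of members past 2-fold in cancer cells therefore rested on which WT cells were kept, while the direction of their ratios was the same in both settings. Among cells of at most 10000 UMIs, 8 of 11 S and 10 of 16 G2/M genes passed, beside 37.8% of all genes in that setting, which kept 18 WT and 224 TSK cancer cells.

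Without the shared barcodes, the largest ratios among the G2/M genes were those of Plk1, Hmmr, Kif11, Nusap1 and Aurkb. Plk1, the Polo-like kinase that drives entry into and exit from mitosis (chr7:122159439-122169873, GRCm38), was at 9.13 CPM in WT and 47.6 CPM in TSK cancer cells, a log2 ratio of 2.38 (1.85 to 2.97), and 0.89 (0.63 to 1.15) with the shared barcodes kept. Hmmr, a spindle-binding hyaluronan receptor, was at 14.5 and 74.2 CPM (2.36, and 0.75 with the shared barcodes kept). Kif11, the kinesin that pushes spindle poles apart, was at 15.1 and 61.2 CPM (2.02 and 0.37). In each of these the difference was under 2-fold once the deep WT cells were kept, and Kif11 then had the smallest ratio of the 24 G2/M genes. Nusap1, a spindle microtubule protein, was at 20.5 and 76.1 CPM (1.89 and 0.91), and Aurkb, the Aurora kinase of the chromosome passenger complex, at 11.6 and 41.9 CPM (1.85 and 0.73). Of the other kinases, Bub1 was at 1.65, Bub1b at 1.62 and Aurka at 1.42, or 0.62, 0.53 and 0.52 with the shared barcodes kept, when Nusap1, Plk1, Ube2c and Top2a had the largest G2/M ratios.

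Top2a (chr11:98992943-99024189) was the most abundant member, at 173 CPM in WT and 587 CPM in TSK cancer cells, a log2 ratio of 1.77 (1.64 to 1.89) without and 0.83 (0.76 to 0.90) with the shared barcodes. Ube2c, the ubiquitin-conjugating enzyme of mitotic exit, was at 73.6 and 188 CPM (1.35 and 0.84), and Cenpa, the centromeric histone, at 71.8 and 168 CPM (1.23 and 0.72). All 3 were higher in TSK in both settings. Mki67, the proliferation antigen that coats mitotic chromosomes, was at 52.9 and 159.9 CPM (1.60), and its ratio with the shared barcodes was 0.42 (0.30 to 0.54), with WT at 119 CPM. Of the cyclins, Ccnb1 was at 19.2 and 49.9 CPM (1.38 and 0.77), Ccnb2 at 36.5 and 60.9 (0.74 and 0.50) and Ccna2 at 19.2 and 45.3 (1.24 and 0.50). Cdc20, the activator of the anaphase-promoting complex, was at 24.9 and 56.6 CPM (1.19 and 0.82). Cks1b and Cks2, small binding partners of the cyclin-dependent kinases, were at 0.81 and 0.64 without and at 0.49 and 0.43 with the shared barcodes, among the smallest G2/M ratios in the first setting.

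Among the S genes, the ratios without the shared barcodes ran from those of Dtl, Cdc6 and Ccne1 down to that of Gins2. Dtl, a substrate receptor for the ligase that destroys Cdt1, was at 21.7 CPM in WT and 73.2 CPM in TSK cancer cells (1.75, and 1.00 with the shared barcodes kept). Cdc6, which loads the helicase, was at 7.24 and 24.3 CPM (1.75 and 1.16), and Ccne1, cyclin E1, at 9.44 and 30.1 CPM (1.67 and 0.79). These 3 had the largest S gene ratios without the shared barcodes, and with them Mcm3 stood above Ccne1. Cdt1, the partner of Cdc6 in loading, was at 33.7 and 44.6 CPM (0.40 and 0.28), and Gins2, a subunit of the active helicase, at 30.8 and 31.0 CPM (0.01 with an interval of -0.29 to 0.32). Gins2 had the smallest ratio of the 46 genes here. Ccne2 was at 10.4 and 19.1 CPM (0.88), a ratio that was 0.02 (-0.29 to 0.34) with the shared barcodes kept, then the smallest of all. E2f1, an activator of S phase genes, was at 19.2 and 29.3 CPM (0.61 and 0.31).

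The helicase subunits did not share a ratio: without the shared barcodes Mcm3 was at 1.41, Mcm4 at 1.13, Mcm6 at 1.13, Mcm5 at 1.01, Mcm7 at 0.61 and Mcm2 at 0.41. With them the order was Mcm3 0.86, Mcm6 0.61, Mcm5 0.58, Mcm4 0.39, Mcm7 0.25 and Mcm2 0.23. Mcm3 had the highest value and Mcm2 the lowest in both, with intervals of 1.16 to 1.67 and 0.09 to 0.74 without and 0.69 to 1.03 and -0.01 to 0.48 with the shared barcodes. Hells, a chromatin remodeller and the S gene with the most UMIs, was at 75.5 and 167 CPM (1.14 and 0.66), and Mcm6 at 61.4 and 134 CPM. Pcna was at 88.1 and 130.0 CPM (0.56, and 0.11 with an interval of -0.01 to 0.23 once the shared barcodes were kept). Of the enzymes of nucleotide supply, Rrm2 was at 15.1 and 35.8 CPM (1.24 and 0.32), Rrm1 at 0.96 and 0.46, and Tyms, thymidylate synthase, at 0.92 and 0.42. Cdc45 was at 0.99 and 0.60 and Uhrf1, which keeps DNA methylation through replication, at 0.72 and 0.14. Ung, a DNA repair glycosylase, and Slbp, the histone mRNA binding protein, were both at 0.48 without and at 0.27 and 0.34 with the shared barcodes.

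**Figure D3:**
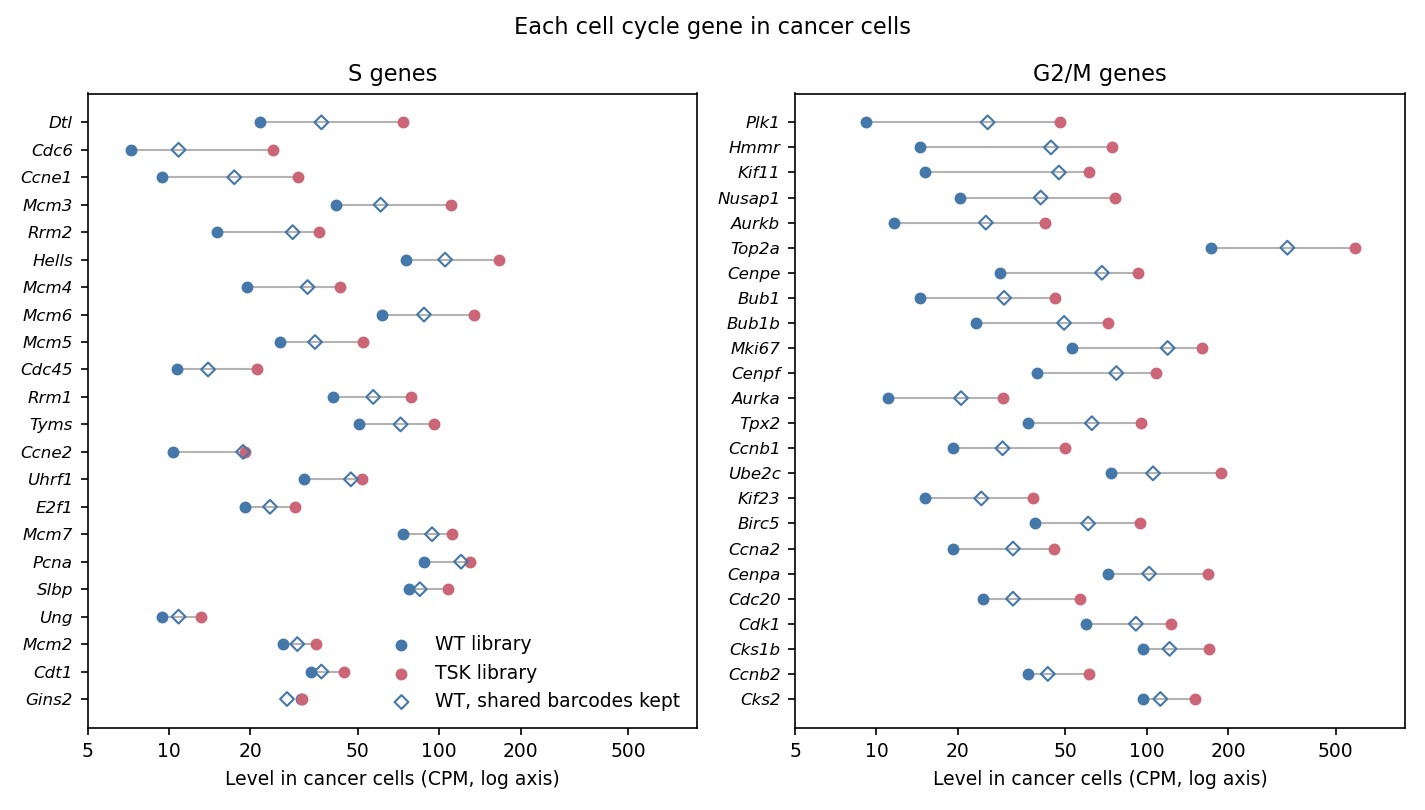
Level of each member in cancer cells (CPM, log axis), 1 row per gene, ordered by the log2 ratio of TSK over WT without the shared barcodes. Filled points are the WT and TSK libraries and open diamonds are WT with the shared barcodes kept. For every gene the TSK point is to the right of the filled WT point, and for all but Gins2 the open diamond lies between them, as for Plk1 at 9.13, 25.8 and 47.6 CPM.

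T cells had higher G2/M sums in TSK than in WT, with an S ratio near that of the median gene, and keeping the shared barcodes added no T cell. T cells were shallower in TSK, at a median of 2795 UMIs beside 6687 in WT. The S genes summed to 667 CPM in WT and 764 CPM in TSK, a log2 ratio of 0.19 (0.07 to 0.31), and the G2/M genes to 406 and 647 CPM, a log2 ratio of 0.67 (0.53 to 0.81). Beside these, the median log2 ratio of all genes tested in T cells was 0.15. Taking off the share of member UMIs that would come with the cancer markers left 403 and 509 CPM for G2/M genes (log2 0.34) and 665 and 689 CPM for S genes (log2 0.05). At least 50 UMIs over both libraries were found for 15 S and 11 G2/M genes. Of these, 1 S and 3 G2/M genes were 2-fold higher in TSK, beside 2.96% of all genes, and none was 2-fold lower, beside 1.61%. Without the minimum of UMIs 8 of 24 G2/M genes passed, a share near the 32.2% of all genes that did. With the scaling set to the median gene 1 of 11 G2/M genes passed (1.63% of all genes), and in cells of at most 10000 UMIs 5 of 11 S genes did (3.95%).

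Top2a was the most abundant G2/M gene of T cells, at 92.7 CPM in WT and 175 CPM in TSK (0.92, 0.64 to 1.19), followed by Mki67 at 50.9 and 90.1 CPM (0.83, 0.44 to 1.20). Both were above their WT level by more than counting error. Cks1b was at 9.30 and 22.5 CPM (1.28), Nusap1 at 15.4 and 33.8 (1.13), Cdk1, the mitotic kinase, at 10.5 and 22.5 (1.11), and Tyms at 12.5 and 28.7 (1.20). These 4 were the members past 2-fold. Cancer markers in T cells stood at 0.321% of their cancer cell level in WT and 5.23% in TSK. The UMIs that would come with them were taken off the sums and not off single genes. The part of cancer cell RNA in these 4 calls was not tested. Among S genes Mcm6 was at 63.9 and 117 CPM (0.87) and Hells at 37.2 and 51.2 CPM (0.46, -0.04 to 0.94). Pcna ran the other way, at 184 CPM in WT and 133 CPM in TSK (-0.47, -0.75 to -0.19), as did Slbp at 105 and 80.9 CPM (-0.38, -0.75 to -0.03). Kif23, a kinesin of cytokinesis, was at -0.73, Ube2c at -0.28 and Dtl at -0.10, each with an interval that held 0. Mcm5 was at 16.9 and 22.5 CPM, Cenpa at 35.2 and 48.1 CPM and Cks2 at 52.9 and 62.5 CPM, also with intervals that held 0. Ccnb1, Cdc20, Ccne1, Ccne2 and E2f1 had fewer than 50 UMIs and levels of 4.36 to 13.3 CPM, and the other members under that minimum lay between 1.45 and 17.4 CPM.

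T cells with a UMI of Cd8a or Cd8b1, the co-receptor chains of cytotoxic T cells, had S genes at 648 CPM in WT and 815 CPM in TSK, and G2/M genes at 388 and 642 CPM. T cells without such a UMI had S genes at 715 and 673 CPM and G2/M genes at 449 and 656 CPM. The higher G2/M level in TSK was thus seen with and without the co-receptor, and the higher S level was seen with it. The median depth was 6876 and 6231 UMIs in WT and 3162.5 and 2329 UMIs in TSK, and cells without the UMI were the shallower ones.

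Macrophages of TSK tumors had higher levels of the MCM helicase genes and of several spindle genes. Their S genes summed to 414 CPM in WT and 551 CPM in TSK, a log2 ratio of 0.41 (0.31 to 0.52), and their G2/M genes to 347 and 587 CPM, a log2 ratio of 0.76 (0.65 to 0.87). The G2/M level of TSK macrophages stood above that of TSK neutrophils (409.8 CPM), and that of WT macrophages did not stand above WT neutrophils (380.3 CPM, from 28 cells). 8 of 15 S genes and 7 of 19 G2/M genes with at least 50 UMIs were 2-fold higher in TSK, beside 3.43% of all genes, and none was 2-fold lower, beside 1.76%. In cells of at most 10000 UMIs these counts were 0 of 2 and 2 of 4, beside 7.65% of all genes, and the S ratio was 0.18 with an interval of -0.06 to 0.42. The markers of monocytes moved with genotype in these cells, at 1417 CPM in WT and 293 CPM in TSK over Ccr2 and Chil3, with both genes detected, and the part of monocytes in the result was not tested. Cancer markers stood at 7.40 CPM in WT and 53.0 CPM in TSK, and taking off the member UMIs that would come with them left 345 and 523 CPM for G2/M genes (log2 0.60) and 413 and 517 CPM for S genes (log2 0.33). Keeping the shared barcodes added 1 macrophage and left the ratios at 0.42 and 0.77.

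All 6 helicase genes passed 2-fold in macrophages: Mcm6 was at 15.1 CPM in WT and 40.6 CPM in TSK (1.42, 0.93 to 1.94), Mcm2 at 7.08 and 18.2 (1.37), Mcm3 at 19.3 and 49.2 (1.35), and Mcm4, Mcm5 and Mcm7 at ratios of 1.24, 1.20 and 1.11. Uhrf1 was at 5.47 and 14.8 CPM (1.44) and Hells at 1.35. Kif11 had the largest ratio, at 5.15 and 17.9 CPM (1.80, 0.97 to 2.71), and Cenpe, a kinesin of the kinetochore, was at 8.37 and 21.7 CPM (1.37). The abundant G2/M genes had smaller ratios, with Top2a at 57.6 and 101 CPM (0.81), Mki67 at 42.5 and 78.5 (0.89), Cenpa at 0.39, Cks2 at 0.24 and Ube2c at 0.77. Cks1b was at 8.69 and 21.0 CPM (1.27). As in T cells, Pcna was lower in TSK, at 142 CPM in WT and 119.8 CPM in TSK (-0.24, -0.45 to -0.04). Rrm2 (-0.17), Ccnb2 (-0.14), Slbp (-0.11) and E2f1 (0.01) had intervals that held 0, and Rrm1 was at 0.59. Ccnb1, Cdc20, Ccne1 and Ccne2 had under 50 UMIs, at 3.22 to 9.29 CPM.

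Stromal cells of TSK tumors had higher G2/M levels than those of WT tumors with and without the shared barcodes, and a smaller S difference. Their G2/M genes summed to 271 CPM in WT and 792 CPM in TSK, a log2 ratio of 1.55 (1.45 to 1.64), and 1.47 (1.39 to 1.56) with the shared barcodes kept. Their S genes summed to 248 and 401 CPM, with a log2 ratio of 0.69 (0.58 to 0.80) that was 0.42 (0.32 to 0.53) once the shared barcodes were kept. Few cells carried these UMIs, with 4 of 221 WT and 13 of 327 TSK cells holding 50% of the G2/M UMIs. Without the 5% of cells highest in member UMIs the G2/M ratio was 2.70, and in cells of at most 10000 UMIs it was 2.66. 6 of 15 S genes and 22 of 23 G2/M genes were 2-fold higher in TSK, beside 6.37% of all genes, and none was 2-fold lower, beside 3.23%. With the shared barcodes kept the counts were 4 of 16 and 21 of 23, beside 4.74% of all genes, and in cells of at most 10000 UMIs, where few genes reached 50 UMIs, they were 0 of 2 and 3 of 3, beside 16.7%. Without a minimum of UMIs, 11 of 22 S genes passed, beside 16.4% of all genes.

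Ccna2, cyclin A2, had the largest stromal ratio, at 3.75 CPM in WT and 21.4 CPM in TSK (2.52, 1.77 to 3.34). Birc5, survivin of the chromosome passenger complex, was at 10.2 and 43.2 CPM (2.08), Top2a at 27.5 and 115 (2.06, 1.78 to 2.35) and Ccnb1 at 5.21 and 20.1 (1.95). Once the shared barcodes were kept these 4 were at 2.32, 1.95, 1.82 and 1.75, all still past 2-fold. Gins2 was at 2.50 and 11.3 CPM (2.17, and 1.92 with the shared barcodes kept), the largest ratio among S genes with 50 UMIs, while in cancer cells it had the smallest. Mki67 was at 18.7 and 54.2 CPM (1.53), Ube2c at 27.1 and 82.0 (1.60), Cks1b at 21.7 and 46.4 (1.10), Cks2 at 1.01 and Cdc20 at 1.46. Among S genes Tyms was at 12.7 and 36.7 CPM (1.53) and Mcm5 at 1.32. The smallest ratios were those of Slbp (-0.20), Pcna (-0.05), E2f1 (0.49), Mcm4 (0.53) and Rrm1 (0.76). Pcna was the S gene with the most UMIs in stromal cells, at 65.0 and 62.7 CPM, and with the shared barcodes kept its ratio was -0.42 (-0.66 to -0.19), with Slbp at -0.33 (-0.63 to -0.03). Ccne1 and Ccne2 had under 50 UMIs, at 2.50 to 7.51 CPM.

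The stromal classes differed from each other. In fibroblasts (133 WT and 208 TSK cells) the S genes were at 204 and 193 CPM, with a ratio of -0.08 (-0.26 to 0.10) on the log2 scale, and the G2/M genes at 125 and 339 CPM, a log2 ratio of 1.43 (1.26 to 1.62). No shared barcode fell to fibroblasts. Their Top2a was at 12.6 and 46.4 CPM, Mki67 at 8.29 and 28.4 and Pcna at 46.1 and 32.7 (-0.50, -0.92 to -0.08), so Pcna was lower in TSK where Top2a and Mki67 were higher. In endothelial cells (62 and 51) the S genes were at 313 and 877 CPM, a log2 ratio of 1.49 (1.28 to 1.69) without and 1.25 with the shared barcodes, and the G2/M genes at 278 and 1308 CPM, at 2.23 (2.04 to 2.43) and 2.03. In mural cells, pericytes and smooth muscle (23 and 67), the S genes were at 309 and 681 CPM, at 1.14 (0.89 to 1.39) and 0.49, and the G2/M genes at 823 and 1713 CPM, at 1.06 (0.91 to 1.21) and 1.48. Mural cells, the class with the most G2/M UMIs of the 3, made up more of the stromal cells in TSK than in WT. Their 10 fibroblast markers summed to 5277 CPM in WT and 3721 CPM in TSK, of which Postn alone gave 3145 and 1732 CPM. Dcn was at 90.6 and 280 CPM in mural cells, beside 3993 and 3779 CPM in fibroblasts. Clec3b and Pi16 were at 0 CPM in WT mural cells and at 11.9 and 22.5 CPM in TSK ones. Endothelial markers were found in mural cells too, with Cdh5 at 185 and 131 CPM and Plvap at 94.2 and 145 CPM. A cell with mural and other stromal markers counted as mural. The part of such mixed cells, or of the mural share, in the stromal and mural values was not tested. Past 2-fold were 0 of 5 S and 6 of 7 G2/M genes in fibroblasts (5.82% of all genes), 3 of 5 and 6 of 6 in endothelial (12.2%) and 2 of 5 and 7 of 17 in mural cells (7.3%). Once the shared barcodes were kept, which added 2 endothelial and 5 mural cells to WT, the counts were 4 of 6 and 7 of 8 in endothelial (8.82%) and 2 of 6 and 14 of 17 in mural cells (4.94%). Single cells weighed heavily in WT, where 1 cell held 41.3% of the G2/M UMIs of fibroblasts, 49.8% of those of endothelial cells and 55.1% of those of mural cells.

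**Figure D4:**
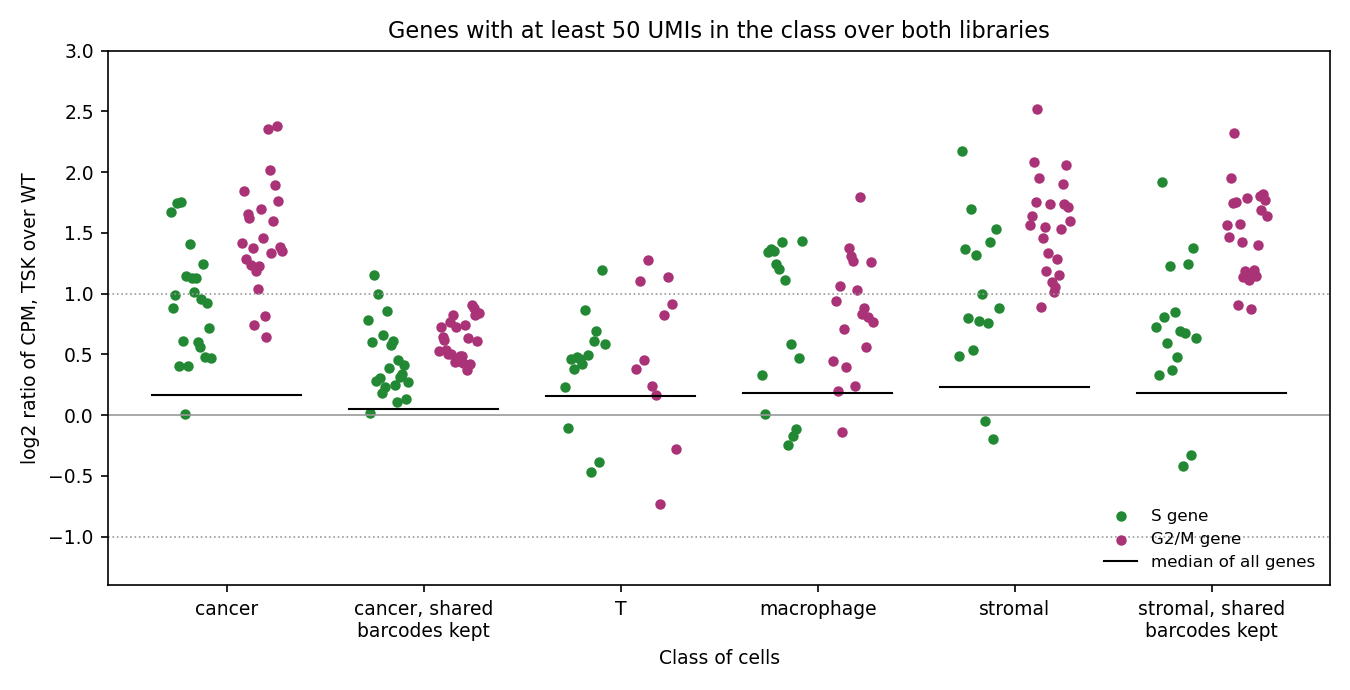
Log2 ratio of CPM, TSK over WT, of each member with at least 50 UMIs in a class (points, S and G2/M genes apart), with the median of all genes of the class (black line) and 2-fold as dotted lines. In cancer cells the points shift down once the shared barcodes are kept, from a G2/M median of 1.40 to 0.61, and in stromal cells the G2/M median is 1.56 without and 1.56 with them.

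Levels summed over a class depend on the number of cells in division and on the RNA of each. To count cells at equal depth, each was thinned to 1000 UMIs and called positive with at least 2 G2/M UMIs. Cancer cells were positive in 20.2% (12.6 to 29.8%) of WT and 50.7% (47.7 to 53.7%) of TSK cells, and the WT share was 23.5% with the shared barcodes kept. The shares before thinning were 80.9% and 94.1%. The difference in the share of positive cancer cells was thus far outside counting error and moved little with the shared barcodes. Neutrophils, the background, were positive in 13.0% (2.78 to 33.6%) of 23 WT and 8.39% (4.54 to 13.9%) of 155 TSK cells, at median depths of 3456.5 and 1980 UMIs. Cells under 1000 UMIs were left out, which took 5 WT and 26 TSK neutrophils, 0 and 12 cancer cells, 0 and 16 T cells, 6 and 25 macrophages and 5 and 12 stromal cells.

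T cells were positive in 6.12% (4.14 to 8.67%) of WT and 8.67% (5.74 to 12.4%) of TSK cells. Macrophages were positive in 2.50% (0.923 to 5.36%) and 8.51% (5.89 to 11.8%). The share at this depth did not set either class apart from neutrophils. The highest thinned G2/M count of a single cell was 7 in WT and 12 in TSK T cells (474 and 300 cells). It was 8 and 9 in macrophages (240 and 376 cells) and 3 and 4 in neutrophils (23 and 155 cells). A highest count tends to rise with the number of cells, so it cannot set these classes apart. The unthinned shares were 40.7% and 31.3% for T cells and 36.2% and 41.9% for macrophages. Fibroblasts, at 2.34% (0.486 to 6.70%) and 4.43% (2.05 to 8.25%), were also not set apart from neutrophils by this share. Stromal cells together were at 4.17% (1.92 to 7.76%) and 12.7% (9.23 to 16.9%). Endothelial cells were at 3.23% (0.393 to 11.2%) in WT and 18.8% (8.95 to 32.6%) in TSK, and mural cells at 8.70% (1.07 to 28.0%) and 38.1% (26.1 to 51.2%). Mural cells were the TSK class besides cancer cells whose interval lay wholly above that of TSK neutrophils. The UMIs were more concentrated in T cells than in neutrophils. In WT, 50% of the G2/M UMIs were held by 12 of 474 T cells (2.53%) and by 3 of 28 neutrophils (10.7%). In TSK they were held by 18 of 316 T cells (5.70%) and by 26 of 181 neutrophils (14.4%). T cells were the deeper class in both libraries. Leaving out Cks2, which gave 22 of the 34 G2/M UMIs of WT neutrophils, the neutrophil shares were 4.35% and 6.45%, beside 4.85% and 7.33% for T cells.

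**Figure D5:**
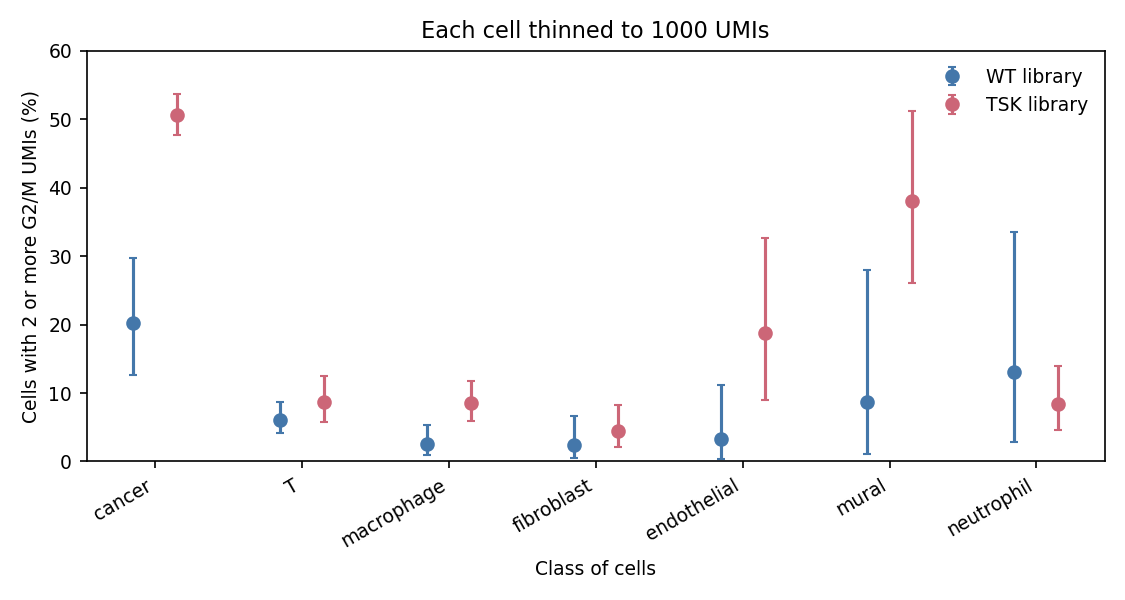
Share of cells (%) with 2 or more G2/M UMIs after thinning each cell to 1000 UMIs, by class and library, with exact 95% binomial intervals and the shared barcodes left out. Cancer cells stand at 20.2% in WT and 50.7% in TSK, and T cells, macrophages and fibroblasts stand no higher than neutrophils beyond their intervals.

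How the members go together within a lineage was described by setting cells with at least 2 G2/M UMIs in the thinned part against cells with no member UMI there, each gene being left out of its own split and measured in the UMIs that thinning had set aside. In TSK cancer cells Mki67 was at 225 and 16.8 CPM (3.74) with and without G2/M UMIs, the log2 ratio being in brackets, Ccnb1 at 74.2 and 5.14 CPM (3.85) and Kif11 at 87.3 and 6.66 CPM (3.71). The split itself uses G2/M UMIs, so larger ratios for G2/M than for S genes follow from it and are a description. Among S genes the smallest ratios were those of Cdt1 at 46.6 and 27.2 CPM (0.78), E2f1 at 28.8 and 15.4 CPM (0.91), Mcm6 at 139 and 74.1 CPM (0.91) and Ung at 12.2 and 6.78 CPM (0.85). Rrm2 (2.81), Mcm5 (2.30) and Cdc6 (2.28) were the S genes with the largest such differences. Cks1b, at 1.42, and Cks2, at 1.76, were the G2/M genes with the smallest. In WT T cells Mki67 was at 411 and 10.2 CPM (5.34) and Top2a at 545 and 49.4 CPM (3.46), the first over 26 cells with and 244 without, and Pcna at 352 and 161 CPM (1.13) and Slbp at 202 and 92.2 CPM (1.13) were present in both. In TSK stromal cells Ube2c was at 406 and 8.06 CPM (5.66) and Ccna2 at 106 and 1.09 CPM (6.61).

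The rest of the pathway was read from 4 wider lists. In cancer cells without the shared barcodes, 12 of 38 other genes of replication and nucleotide supply were 2-fold higher in TSK (median log2 0.80), 34 of 50 of mitosis and cytokinesis (1.30) and 4 of 20 G1 cyclins, kinases, pocket proteins and E2F factors (0.61), beside 9.51% of all genes. Once the shared barcodes were kept these counts were 0 of 38, 2 of 50 and 1 of 20, at medians of 0.45, 0.55 and 0.26. These shares were near or below the 4.58% of all genes and are no result about the lists. None was 2-fold lower without the shared barcodes. Without the shared barcodes, the largest ratios included those of Exo1 (2.32, and 0.81 with the shared barcodes kept) and Mcm10 (1.76 and 0.85) for replication and its repair, and those of Kif18b (2.39 and 0.58), Sgo1 (2.34 and 1.00) and Kif20a (2.05 and 1.01) for mitosis. E2f7 (1.73 and 0.84), Cdc25a (1.72 and 0.95) and E2f3 (1.43 and 1.05) led the G1 list. In that setting the smallest were Pole2 (-0.47 and -0.17), Rpa3 (-0.36 and -0.64) and Dut (0.30 and 0.13), the tubulins Tuba1b (0.12 and -0.24) and Tubb5 (0.25 and 0.11) with Pttg1, securin (0.19 and 0.05), and the pocket proteins Rb1 (-0.35 and -0.20) and Rbl2 (-0.30 and -0.26) with Ccnd1, cyclin D1 (-0.14 and -0.05). Pole, the catalytic subunit of DNA polymerase epsilon, was named after its values were seen: its ratio was 1.25 (0.88 to 1.64) without and -0.48 (-0.65 to -0.31) with the shared barcodes, a reversal that made it the smallest of the replication list after Rpa3.

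CDK inhibitors, the brakes of the cycle, did not share the direction of the members in cancer cells. Cdkn1a, the p21 gene, is known to be switched on by p53, which the p53-/- SO cells lack. It was at 86.6 CPM in WT and 55.4 CPM in TSK cancer cells, a log2 ratio of -0.64 (-0.83 to -0.46) without and -0.29 (-0.45 to -0.12) with the shared barcodes. Cdkn2c was at 25.5 CPM in WT and 17.6 CPM in TSK (-0.54 and -0.44) and Cdkn2d at 17.9 CPM in WT and 14.0 CPM in TSK (-0.36 and -0.17). Cdkn2b (-0.09 and 0.03), Cdkn1b (0.09 and 0.00) and Cdkn3 (0.33 and 0.20) had intervals that held 0 in both settings, and Cdkn1c was at 2.20 CPM in WT and 10.5 CPM in TSK (2.26 and 2.59), from 7 WT UMIs. Cdkn2a (-0.14) was a marker of the cancer class, so its level there is no finding. In fibroblasts Cdkn1a was at 77.2 CPM in WT and 254 CPM in TSK (1.72, 1.50 to 1.94), against -0.60 (-0.93 to -0.28) in endothelial and -0.38 (-0.73 to -0.03) in mural cells. In T cells it was at 109 CPM in WT and 103 CPM in TSK (-0.07) and Cdkn1b at 94.1 CPM in WT and 122 CPM in TSK (0.37, 0.06 to 0.68), and in macrophages Cdkn1a was at 475 CPM in WT and 505 CPM in TSK (0.09) and Cdkn1b at 26.7 CPM in WT and 52.0 CPM in TSK (0.96, 0.56 to 1.36).

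In the other lineages the same 3 lists and the CDK inhibitors were counted. In T cells 1 of 17 replication genes with 50 UMIs, 1 of 18 mitosis genes and 0 of 12 G1 genes were 2-fold higher in TSK, at medians of 0.13, 0.24 and 0.13 beside 0.15 for all genes, of which 2.96% were 2-fold higher. In macrophages the counts were 4 of 23, 6 of 22 and 1 of 16, at medians of 0.50, 0.86 and 0.25 beside 0.18 for all genes (3.43% of them 2-fold higher). In stromal cells they were 11 of 22, 27 of 33 and 1 of 17, at medians of 1.00, 1.55 and 0.35 beside 0.24 for all genes (6.37%), and with the shared barcodes kept they were 9 of 27, 25 of 34 and 0 of 17 (4.74%). Of the CDK inhibitors with 50 UMIs, 0 of 3 were 2-fold higher in T cells, 1 of 5 in macrophages and 4 of 8 in stromal cells, at medians of 0.37, 0.93 and 1.02, and none was 2-fold lower. The gene in macrophages was Cdkn2a, a cancer cell marker, and those in stromal cells were Cdkn2a (2.40), Cdkn2b (2.36), Cdkn3 (1.92) and Cdkn2d (1.40), again 4 of 8 with the shared barcodes kept. The mitosis list thus lay furthest from the median of all genes in stromal cells and near it in T cells. S genes were 1.64 times the G2/M genes in summed UMIs in WT T cells and 1.18 times in TSK T cells, 1.19 and 0.940 times in macrophages and 0.777 and 0.545 times in cancer cells. In each of these 3 lineages the balance was further towards G2/M genes in TSK without the shared barcodes. With them, cancer cells held 1051 CPM of S and 1695 CPM of G2/M genes in WT, and 1436 and 2638 CPM in TSK.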

How the data were processed

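Tumors of each genotype were pooled, dissociated and captured with 10x Genomics 3′ v2 chemistry, 1 library per genotype. The authors deposited raw UMI counts per gene and barcode made with Cell Ranger (7.1.1 in the submitters' processing notes, 7.1.0 per the file headers), and the notes name the build mm10. Gene positions are from GENCODE M21 on GRCm38, and promoters from RefSeq, with the first listed start used.

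Cells with at least 200 genes and 500 UMIs and at most 10% mitochondrial UMIs were kept, and barcodes found in both libraries were left out. A class claimed a cell holding at least 3 UMIs from at least 2 of its markers, at 25% or more of the median marker level of that class. A cell claimed by both T and NK markers counted as a T cell. Macrophage claims together with monocyte or dendritic ones counted as macrophage. Any stromal mix that included mural markers counted as mural, and fibroblast with endothelial claims as stromal alone. Cells claimed by other combinations, or by none, were left out. This rule, and the dropping of Ly6c2, Plac8, Ace, Vcan, Nav3, Flt1 and Pecam1 as markers, were set after the data had been seen. The members, gene lists and comparisons were chosen with earlier results of these data known.

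UMIs were summed per class and library and divided by all UMIs of the class (CPM), without a pseudocount. Intervals are exact Poisson for a level, exact binomial (Clopper-Pearson) for a share and exact conditional for a ratio, all at 95% and for counting error only. With 1 library per genotype there was no test and no p-value. Calls past 2-fold were made for genes whose WT and TSK UMIs in a class summed to 50 or more. Thinning drew 1000 UMIs per cell without replacement. Named in each lineage were the 5 largest and 5 smallest ratios among genes with 50 UMIs, the 4 S and 4 G2/M genes with the most UMIs and 10 genes for their roles, and of each wider list the 3 largest and 3 smallest ratios in cancer cells and every CDK inhibitor. A replication list gene that this rule names is not reported here. Further members named, and the genes given for single stromal classes, fall outside this rule and were picked after their values were seen. A doublet caller written after the Scrublet method called 0 WT and 5 TSK cells and found 1.56% and 1.91% of simulated doublets, so it did not work and doublets were left in. Gene ratios, their intervals and the thinning were checked on simulated counts. Alternatives changed the limits on depth and mitochondrial UMIs, the shared barcodes, the marker rule, the clustering (Leiden), the weight of cells, the scaling, the doublets, the minimum of UMIs per gene, the thinning and the promoter window. Analyses used scipy 1.17.1, numpy 2.4.6 and pandas 2.3.3 in Python 3.11.15, scikit-learn 1.9.0, igraph 0.11.9, leidenalg 0.10.2 and matplotlib 3.10.9.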

Additional observations from a re-analysis of the deposited data

Results flagged for a closer look

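The barcodes found in both libraries were outside the main values and carried the cell cycle genes, which is why they are listed here. Those past the other limits numbered 251 in WT and 255 in TSK. Their S genes were at 1246 CPM in WT and 1237 CPM in TSK, and their G2/M genes at 2196 and 3084 CPM. All 4 levels are above those of the neutrophils of the same library. They rest largely on few deep cells. In WT, 21 cancer cells held 1980498 of the 3106376 UMIs, with G2/M genes at 2807 CPM. In TSK, 3 cancer cells held 158378 of the 380072 UMIs, and 1 cell held 82.7% of the G2/M UMIs of these 3.

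Pcna differed in direction between lineages. Its log2 ratio of TSK over WT was -0.47 (-0.75 to -0.19) in T cells and -0.24 (-0.45 to -0.04) in macrophages, against 0.56 (0.39 to 0.74) in cancer cells. Slbp was at -0.38 (-0.75 to -0.03) in T cells against 0.48 (0.29 to 0.67) in cancer cells. Once the shared barcodes were kept, the cancer cell values were 0.11 (-0.01 to 0.23) for Pcna and 0.34 (0.20 to 0.49) for Slbp. With 1 library in each genotype, the difference between lineages was not tested.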

How the results depend on the processing

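Each library is alone in its genotype, so no replicate could be left out, and no paired analysis was possible because no comparison had more than 1 library in an arm. Of the alternatives tried, 133 left a value within its counting interval or within 1.5 times a count, 134 moved it and 1 reversed it. The 102 recomputed log2 ratios of the summed S or G2/M genes were all above 0 for the 4 lineages, with 78 of 80 intervals above 0, the exceptions being S genes of macrophages in cells of at most 10000 UMIs and in cells of 1000 to 10000 UMIs. The reversal was that of fibroblasts taken alone, which had -0.082 for S genes. The 54 levels over cancer cells were all below 0. The causes of these movements were not tested, and depth limits the host lineages most, where 26 members in T cells, 34 in macrophages and 38 in stromal cells reached 50 UMIs, against all 46 in cancer cells.

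Once shared barcodes were kept in the deeper library, an alternative chosen after the data had been seen, the log2 ratio of TSK over WT was 0.45 in cancer cells and 0.42 in stromal cells for S genes, and 0.64 in cancer cells for G2/M genes. The level over cancer cells was then -1.35 in WT T cells, -1.86 in WT macrophages and -2.23 in WT stromal cells. Past 2-fold were then 1 of 22 S genes and 0 of 24 G2/M genes in cancer cells, beside 4.58% of all genes. With every shared barcode kept in both, the log2 ratio of TSK over WT was 0.45 in cancer cells and 0.42 in stromal cells for S genes, and 0.64 in cancer cells for G2/M genes. Over cancer cells, the level was then -1.35 in WT T cells, -1.86 in WT macrophages and -2.23 in WT stromal cells.

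In cells of at most 10000 UMIs and genes, the log2 ratio of TSK over WT was 0.51 in T cells, 1.47 in cancer cells, 0.18 in macrophages and 0.38 in stromal cells for S genes, and 1.25 in T cells, 1.56 in cancer cells, 1.25 in macrophages and 2.66 in stromal cells for G2/M genes. Relative to cancer cells it was -0.39 in WT T cells, -1.13 in TSK T cells, -2.09 in TSK macrophages, -1.29 in WT stromal cells and -1.49 in TSK stromal cells. Past 2-fold were then 5 of 11 S genes in T cells (3.95% of all genes) and 10 of 16 G2/M genes in cancer cells (37.8%). In macrophages 0 of 2 S and 2 of 4 G2/M genes passed (7.65%), and in stromal cells 0 of 2 and 3 of 3 (16.7%). The thinned share of cells was then 3.17% of WT T cells, 44.3% of TSK cancer cells, 5.88% of TSK macrophages and 16.9% of TSK stromal cells. In cells of 1000 to 10000 UMIs, chosen after the data had been seen, the log2 ratio of TSK over WT was 0.52 in T cells, 1.47 in cancer cells, 0.18 in macrophages and 0.36 in stromal cells for S genes, and 1.25 in T cells, 1.56 in cancer cells, 1.24 in macrophages and 2.66 in stromal cells for G2/M genes. With equal weight per cell, the log2 ratio of TSK over WT was 1.03 in cancer cells for S genes, and 0.98 in T cells, 1.21 in macrophages and 1.80 in stromal cells for G2/M genes. The level over cancer cells was then -1.39 in WT macrophages and -1.69 in TSK stromal cells. With the stricter marker rule, the log2 ratio of TSK over WT was 0.77 in cancer cells, 0.26 in macrophages and 0.45 in stromal cells for S genes, and 0.48 in T cells, 1.28 in cancer cells and 0.56 in macrophages for G2/M genes. Over cancer cells, the level was then -0.81 in WT T cells, -2.30 in WT stromal cells and -2.43 in TSK stromal cells. With Cdkn2a left out of the markers, the log2 ratio of TSK over WT was 0.63 in macrophages for S genes, and 1.01 in macrophages for G2/M genes. Relative to cancer cells it was -1.53 in TSK macrophages and -1.63 in TSK stromal cells. Leiden clusters gave 182 WT and 1488 TSK cancer cells. With Leiden clusters, the log2 ratio of TSK over WT was 0.98 in cancer cells, 0.56 in macrophages and 0.96 in stromal cells for S genes, and 1.47 in cancer cells, 1.01 in macrophages and 1.82 in stromal cells for G2/M genes. The level over cancer cells was then -1.31 in WT macrophages, -1.69 in WT stromal cells and -1.51 in TSK stromal cells.

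Scaled by the median gene of each class, which took off the all-gene medians given in the text, the log2 ratio of TSK over WT was 0.040 in T cells, 0.72 in cancer cells, 0.23 in macrophages and 0.46 in stromal cells for S genes, and 0.52 in T cells, 1.23 in cancer cells, 0.58 in macrophages and 1.31 in stromal cells for G2/M genes. Past 2-fold was then 1 of 11 G2/M genes in T cells, beside 1.63% of all genes. In cancer cells 5 of 22 S genes passed, and the share of all genes was not counted there, so this count is no result. Without a minimum of UMIs per gene, 11 of 22 S genes passed in stromal cells (16.4% of all genes) and 8 of 24 G2/M genes in T cells (32.2%). With member UMIs that come with cancer markers taken off, chosen after the data had been seen, the log2 ratio of TSK over WT was 0.051 in T cells for S genes, and 0.34 in T cells, 0.60 in macrophages and 1.45 in stromal cells for G2/M genes. Without the 5% of cells highest in member UMIs, also chosen after, the log2 ratio of TSK over WT was 0.96 in cancer cells and 0.75 in macrophages for S genes, and 0.94 in T cells, 1.54 in cancer cells, 1.12 in macrophages and 2.70 in stromal cells for G2/M genes. Taken apart, again after the data had been seen, fibroblasts had 1.43 for G2/M genes, endothelial cells 1.49 for S and 2.23 for G2/M genes, and mural cells 1.14 and 1.06.

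With at least 1 G2/M UMI, the share of positive cells was 19.0% of WT T cells, 37.7% of TSK T cells, 39.4% of WT cancer cells, 68.9% of TSK cancer cells, 12.1% of WT macrophages, 25.5% of TSK macrophages, 9.26% of WT stromal cells and 29.5% of TSK stromal cells. With at least 3, the share of positive cells was 2.53% of WT T cells, 4.33% of TSK T cells, 11.7% of WT cancer cells, 36.7% of TSK cancer cells, 0.833% of WT macrophages, 5.05% of TSK macrophages, 1.85% of WT stromal cells and 7.30% of TSK stromal cells. Thinned to 500 UMIs, the share of positive cells was 1.48% of WT T cells, 3.48% of TSK T cells, 5.32% of WT cancer cells, 29.0% of TSK cancer cells, 3.24% of TSK macrophages, 1.81% of WT stromal cells and 7.95% of TSK stromal cells. Thinned to 2000 UMIs, the share of positive cells was 9.09% of WT T cells, 23.8% of TSK T cells, 33.0% of WT cancer cells, 66.6% of TSK cancer cells, 6.96% of WT macrophages, 17.1% of TSK macrophages and 19.2% of TSK stromal cells. In the 100 bases before the start, CHR letters were in 33.3% of G2/M promoters (6.29% of all promoters) and E2F letters in 15.8% of S promoters (1.21%). CHR with CCAAT was there in 28.6% of G2/M, 0% of S and 1.17% of all promoters.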

Other observations

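Cells given no class also differed between the libraries in the cell cycle genes. The 272 such cells of WT had S genes at 354 CPM and G2/M genes at 260.0 CPM, and the 482 of TSK had 1219 and 2083 CPM. Their median depth was 2243 UMIs in WT and 1471.5 UMIs in TSK. Cells with markers of several lineages had S genes at 372 CPM in WT and 1190.1 CPM in TSK, and G2/M genes at 529.9 and 1844 CPM. Barcodes over the mitochondrial limit numbered 117 in WT and 804 in TSK, with S genes at 379 and 978 CPM and G2/M genes at 531 and 1535 CPM.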
